A study of Homo sapiens with 15 samples.

Results

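The BCL2 family decides whether a stressed cell permeabilizes the outer membrane of its mitochondria and enters apoptosis, and 10 of its genes were followed here in cisplatin-resistant ovarian cancer cells. The genes were chosen by name: the anti-apoptotic BCL2, BCL2L1 (BCL-XL), BCL2L2 (BCL-W) and MCL1, the effectors BAX and BAK1, and the BH3-only genes BCL2L11 (BIM), BBC3 (PUMA), PMAIP1 (NOXA) and BID. They are 10 of the 47634 gene identifiers in each count table, and the rule used their names, although the family was picked with earlier results of these data known.

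IGROV-CP20, an established human ovarian cancer cell line selected for resistance to cisplatin, was profiled by 3′ mRNA sequencing, which reads the end of each polyadenylated transcript. There were 5 conditions with 3 biological replicates each. Cells were untreated, received 50 µM cisplatin for 24 h, or first received 10 µM Tranilast (an anti-allergic drug), Telmisartan (an angiotensin receptor blocker) or Amphotericin B (an antifungal polyene) for 24 h, after which 50 µM cisplatin was given for another 24 h. The study had picked the 3 drugs because they raised the toxicity of cisplatin in a viability screen of these cells. No group analysed here received a drug without cisplatin, the sensitive parental line was not analysed here, and everything below comes from 1 cell line. The 3 drug groups were compared with the same 3 cisplatin libraries and the same 3 untreated libraries, so those comparisons share their controls.

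As background, BAX and BAK1 form the pores that release cytochrome c, and the anti-apoptotic proteins hold them in check by binding their BH3 domains. BH3-only proteins are the sensors: they occupy the anti-apoptotic proteins or activate BAX and BAK1 directly. NOXA pairs mainly with MCL1, whereas BIM and PUMA bind all the anti-apoptotic proteins. Much of the family is regulated at the protein level (MCL1 by degradation, BID by cleavage), which mRNA counts do not show.

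Libraries held 1510620 to 3517041 counts, and levels are given as CPM, the counts scaled to library size and corrected by trimmed mean of M values (TMM). A gene with 3 counts or fewer is treated as at the detection floor, which lies between 8.53e-05% and 0.000199% of a library. Cisplatin replicate 1 and Telmisartan replicate 3 stood apart from their own groups: their counts differed from those of their replicates with a chi-square per degree of freedom of 26.4 to 44.2, against 2.24 to 8.07 for all other replicate pairs. The share of counts from mitochondrial ribosomal RNA also varied, between 1.79% and 2.53% in every untreated and Tranilast library, between 12.3% and 14.8% in every Amphotericin B library, and between 3.41% and 13.7% within the other groups. Epithelial identity was checked on 7 genes: KRT18, KRT8 and EPCAM were above 3 counts in all 15 libraries, whereas KRT7, PAX8 and WT1 had at most 1 count in any library and MUC16 was above 3 counts in 1 library only, so these lineage markers were near or below detection. In bulk RNA, fewer cells of a kind and less RNA per cell cannot be told apart.

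To show the regulatory DNA of the members that moved, their promoter windows (250 bases before to 50 after a transcription start, RefSeq, GRCh38.p14) were read for 4 short motifs on both strands: TGACGT, the core bound by the ATF/CREB family, TTTGGCGC or TTTCGCGC, of the type bound by E2F factors, GGGCGG, the GC box bound by SP1, and CCAAT, bound by NF-Y. A window was found for 8 of the 10 members (none for BCL2L2 and MCL1). Of 35116 promoter windows of this length, 7.98% held TGACGT, 1.15% the E2F-type motif, 45.0% GGGCGG and 34.6% CCAAT. The windows of 3 genes that rose with cisplatin (PMAIP1, BAX and BAK1) and of BBC3, which had another pattern, follow 5′ to 3′ along the gene, with every match on either strand in capitals.
PMAIP1 chr18:59899746-59900045 (+ strand): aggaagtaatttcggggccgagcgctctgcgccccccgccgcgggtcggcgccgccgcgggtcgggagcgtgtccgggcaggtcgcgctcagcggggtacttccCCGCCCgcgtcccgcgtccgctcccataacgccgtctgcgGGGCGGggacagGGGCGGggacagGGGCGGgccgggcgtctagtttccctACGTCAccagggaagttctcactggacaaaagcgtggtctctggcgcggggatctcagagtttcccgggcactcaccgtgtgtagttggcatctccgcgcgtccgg
BAX chr19:48954625-48954924 (+ strand): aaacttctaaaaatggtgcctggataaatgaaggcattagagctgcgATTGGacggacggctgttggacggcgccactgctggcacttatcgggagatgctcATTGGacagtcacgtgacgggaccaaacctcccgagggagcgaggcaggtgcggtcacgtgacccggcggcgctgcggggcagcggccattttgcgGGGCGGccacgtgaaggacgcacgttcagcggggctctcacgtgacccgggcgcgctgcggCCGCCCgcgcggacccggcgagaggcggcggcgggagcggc
BAK1 chr6:33580227-33580526 (- strand): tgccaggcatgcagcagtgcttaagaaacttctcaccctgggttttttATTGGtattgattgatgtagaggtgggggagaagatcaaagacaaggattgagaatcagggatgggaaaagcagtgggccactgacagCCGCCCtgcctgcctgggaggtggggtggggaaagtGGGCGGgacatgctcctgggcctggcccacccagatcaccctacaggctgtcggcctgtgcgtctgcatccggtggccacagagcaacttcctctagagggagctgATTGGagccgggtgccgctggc
BBC3 chr19:47232618-47232917 (- strand): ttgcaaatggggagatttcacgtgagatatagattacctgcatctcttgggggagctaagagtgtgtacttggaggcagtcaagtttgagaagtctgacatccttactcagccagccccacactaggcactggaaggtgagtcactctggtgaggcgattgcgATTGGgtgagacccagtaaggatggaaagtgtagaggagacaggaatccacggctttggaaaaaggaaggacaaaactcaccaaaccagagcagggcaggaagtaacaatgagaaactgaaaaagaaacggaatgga
PMAIP1 held the only TGACGT among the members (read as ACGTCA, at -56 from the start) and 4 GGGCGG. BAX held GGGCGG at -52 and at 10 and CCAAT (read as ATTGG) at -203 and -148. BAK1 held GGGCGG at -114 (read as CCGCCC) and -78 and CCAAT (read as ATTGG) at -202 and 29. In BBC3, the only match was a CCAAT at -87, and its window had a GC content of 48.0% against 71.3% in PMAIP1. The E2F-type motif was in no member's window. The matches are letters in a short window and no measure of binding.

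**Figure D1:**
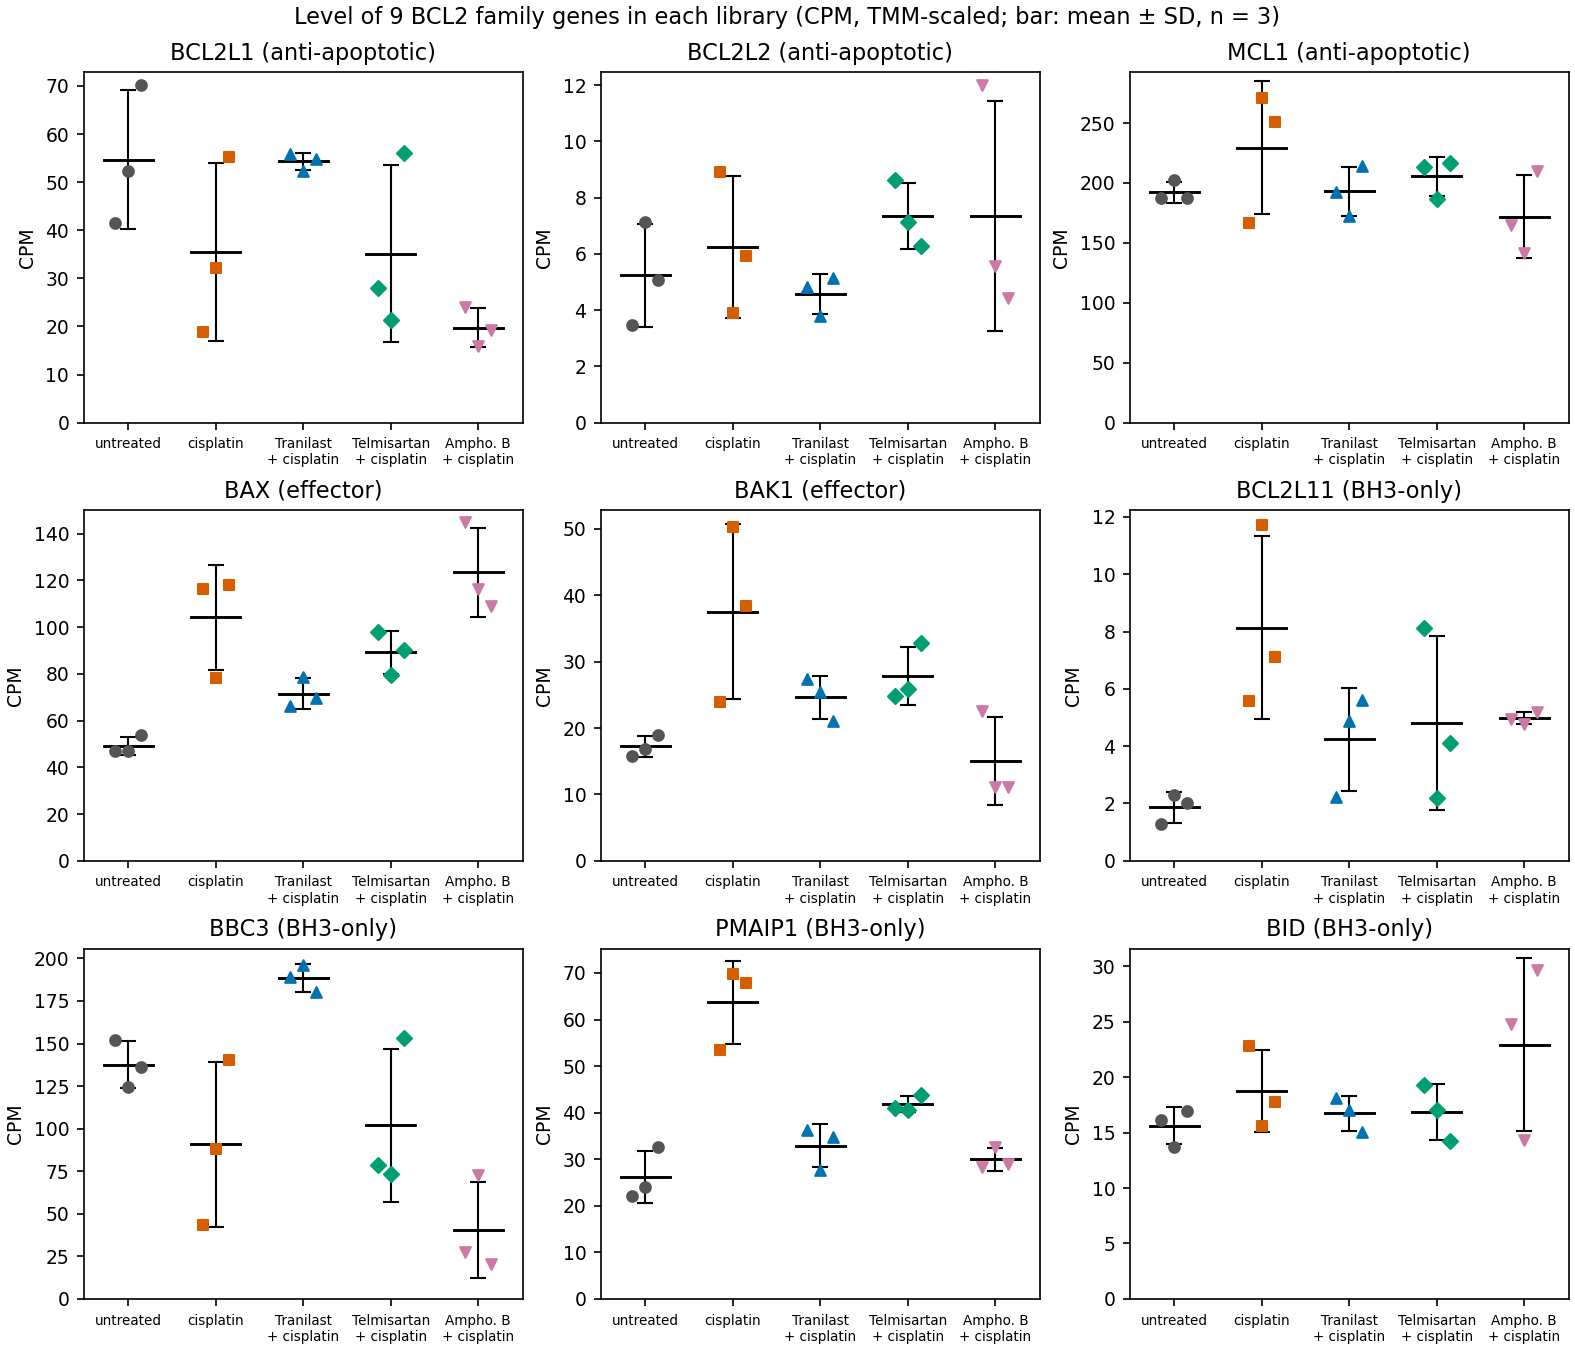
Level of 9 BCL2 family genes in CPM (y axis, linear from 0) in the 15 libraries, 1 point per library, grouped by condition on the x axis, with bars for the mean ± SD (n = 3). BAX and PMAIP1 lay higher in all cisplatin libraries than in all untreated libraries, and BBC3 and BCL2L1 were widely spread within the cisplatin and Telmisartan groups.

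Members are given by role, from the anti-apoptotic genes to the effectors and the BH3-only genes. BCL2 (ENSG00000171791, chr18:63123346-63320128, minus strand; positions are those of GENCODE 29 on GRCh38) had 0 to 3 counts in every library, at the detection floor, and was not tested. BCL2L1 (ENSG00000171552, chr20:31664452-31723989, minus strand), which keeps BAX and BAK1 inactive, measured 41.5, 52.4 and 70.1 CPM in the untreated libraries and 18.9, 32.2 and 55.3 CPM with cisplatin. Pretreated libraries measured 55.9, 52.3 and 54.8 CPM (Tranilast), 27.9, 21.4 and 56.1 CPM (Telmisartan) and 24.0, 15.9 and 19.3 CPM (Amphotericin B). The Tranilast libraries lay close together within the untreated range, all Amphotericin B libraries lay below every untreated and every Tranilast library, and the cisplatin and Telmisartan groups spanned most of the distance between. MCL1 (ENSG00000143384, chr1:150574551-150579738, minus strand), a short-lived protein and the main partner of NOXA, measured 187, 202 and 187 CPM untreated and 166, 271 and 251 CPM with cisplatin. In the Tranilast, Telmisartan and Amphotericin B groups it measured 193, 173 and 214 CPM, 213, 187 and 217 CPM and 165, 141 and 209.8 CPM. MCL1 ranges overlapped between each of the cisplatin groups and the untreated group. BCL2L2 (ENSG00000129473, chr14:23298790-23311759, plus strand) had only 3.49 to 12.0 CPM over the 15 libraries, and it overlaps HOMEZ and PPP1R3E on the other strand and the readthrough gene BCL2L2-PABPN1 on its own. How the counting treated strand is not given in the sources used here, so its reads and theirs cannot be told apart.

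Against untreated cells, cisplatin changed none of the 3 tested anti-apoptotic genes past the threshold (adjusted p under 0.05, edgeR quasi-likelihood test with Benjamini-Hochberg adjustment over 11113 genes, as in all tests below). The log2 change was -0.61 (SE 0.34, adjusted p = 0.153) for BCL2L1, 0.26 (SE 0.19, adjusted p = 0.293) for MCL1 and 0.23 (SE 0.41, adjusted p = 0.673) for BCL2L2. The standard errors leave room for changes of either sign in BCL2L2, and the estimate for BCL2L1 moved from -1.09 to 0.01 over 25 alternative settings.

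BAX (ENSG00000087088, chr19:48954815-48961798, plus strand), the cytosolic pore former, measured 46.9, 46.9 and 53.7 CPM untreated and 116, 78.0 and 118 CPM with cisplatin. With Tranilast, Telmisartan or Amphotericin B before cisplatin it measured 66.3, 78.9 and 69.6 CPM, 97.9, 79.6 and 90.0 CPM and 145, 116 and 109 CPM. Every cisplatin-treated library, with or without a drug, lay above every untreated library, and the order of group means was Amphotericin B (123 ± 19.0 CPM, SD, n = 3), cisplatin alone (104 ± 22.6 CPM), Telmisartan (89.2 ± 9.18 CPM), Tranilast (71.6 ± 6.54 CPM) and untreated (49.2 ± 3.89 CPM). Among the first 3 groups, neighbours in that order had overlapping ranges. Tranilast lay apart from both Telmisartan and untreated but overlapped cisplatin alone, where replicate 2 had 78.0 CPM. BAK1 (ENSG00000030110, chr6:33572547-33580293, minus strand), the pore former resident in the mitochondrial membrane, measured 15.8, 16.9 and 19.0 CPM untreated and 23.9, 50.2 and 38.3 CPM with cisplatin. In the Tranilast, Telmisartan and Amphotericin B groups BAK1 measured 27.4, 25.5 and 21.1 CPM, 24.9, 25.8 and 32.8 CPM and 22.6, 11.2 and 11.1 CPM. Both effectors were higher with cisplatin alone than without it, but the Amphotericin B group was the highest for BAX and the lowest for BAK1.

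Among the BH3-only genes, PMAIP1 (ENSG00000141682, chr18:59899948-59904306, plus strand), which encodes NOXA, measured 22.2, 24.0 and 32.7 CPM untreated and 53.5, 69.7 and 67.9 CPM with cisplatin. Pretreatment gave 36.3, 27.6 and 34.8 CPM (Tranilast), 41.1, 40.6 and 43.8 CPM (Telmisartan) and 28.3, 32.7 and 28.9 CPM (Amphotericin B). All 3 cisplatin-alone libraries lay above every library of the other 4 conditions. BBC3 (ENSG00000105327, chr19:47220822-47232766, minus strand), which encodes PUMA, measured 152, 125 and 136 CPM untreated and 43.4, 88.3 and 141 CPM with cisplatin. The pretreated libraries measured 189, 196 and 180.2 CPM (Tranilast), 78.6, 73.6 and 154 CPM (Telmisartan) and 27.6, 72.6 and 20.8 CPM (Amphotericin B). Tranilast libraries were the 3 highest of all 15, and the Amphotericin B libraries lay below every untreated and every Tranilast library. BCL2L11 (ENSG00000153094, chr2:111119378-111168447, plus strand), which encodes BIM, was low: 1.27, 2.29 and 2.02 CPM untreated and 5.57, 11.7 and 7.11 CPM with cisplatin. In the Tranilast, Telmisartan and Amphotericin B groups BCL2L11 measured 2.22, 4.88 and 5.61 CPM, 8.12, 2.20 and 4.11 CPM and 4.95, 4.78 and 5.19 CPM. The cisplatin-alone libraries lay above all untreated ones, but the gene overlaps the noncoding MIR4435-2HG on the other strand (261 to 468 counts per library), from which its reads cannot be told apart. BID (ENSG00000015475, chr22:17734138-17774770, minus strand), which links death receptors to mitochondria, ranged from 13.7 to 29.6 CPM, with overlapping ranges between groups next to each other in the order of means.

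Cisplatin alone raised both effectors and the BH3-only genes PMAIP1 and BCL2L11 in the resistant cells, and no member was called lower. PMAIP1 rose 2.42-fold, a log2 change of 1.27 (SE 0.20, adjusted p = 8.60e-05). BAX rose 2.12-fold, by 1.08 (SE 0.19, adjusted p = 0.000253) on the log2 scale, and BAK1 rose 2.18-fold, by 1.12 (SE 0.28, adjusted p = 0.00361). The fold was largest for BCL2L11, 4.25-fold or 2.09 (SE 0.48, adjusted p = 0.00225), at a low level and in a gene that overlaps MIR4435-2HG. BBC3, with a log2 change of -0.59 (SE 0.38, adjusted p = 0.217), and BID, with 0.25 (SE 0.26, adjusted p = 0.443), did not pass. In all, 4 of 9 tested members were called, all higher, where 44.7% of all 11113 tested genes were called (2345 higher and 2621 lower). The share of members called was thus near the background. The median log2 change was 0.26 over the members and -0.01 over all tested genes.

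PMAIP1, BAX and BCL2L11 were called under all 25 alternatives, and BAK1 under all except when only library size was used for scaling, where its log2 change was 0.81 (adjusted p = 0.0805), the median of all genes shifted to -0.36 and 1025 genes were higher and 3350 lower. Without cisplatin replicate 3, BCL2L1 (log2 change -1.09, adjusted p = 0.0186) and BBC3 (log2 change -1.06, adjusted p = 0.0392) were called lower as well. MCL1 was called higher without cisplatin replicate 1 (log2 change 0.44, adjusted p = 0.0491). It was also called higher with the mitochondrial ribosomal RNA share as a covariate (log2 change 0.43, adjusted p = 0.0357). Marker genes moved as well. Of the epithelial markers, KRT18 was called higher with cisplatin and EPCAM lower, EPCAM also being lower than untreated in each drug group, and the 7 listed summed to 143 to 149.6 CPM untreated and 137 to 239 CPM in the cisplatin-treated groups. The summed level of 4 leukocyte genes was 64.9 to 78.5 CPM untreated and 4.34 to 22.4 CPM in the cisplatin-treated groups, carried by PTPRC, with CD3E at 0 counts in every library and CD68 and LYZ at no more than 8. The summed level of 3 fibroblast genes was 7.09 to 8.58 CPM untreated and 12.8 to 33.7 CPM with treatment, carried by COL1A1, with DCN and LUM at no more than 4 counts. The endothelial VWF had 0 counts, and 2 hepatocyte genes summed to 0.449 to 11.2 CPM, ALB being called higher with Amphotericin B than in untreated cells. The part of these in the members' changes was not tested.

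**Figure D2:**
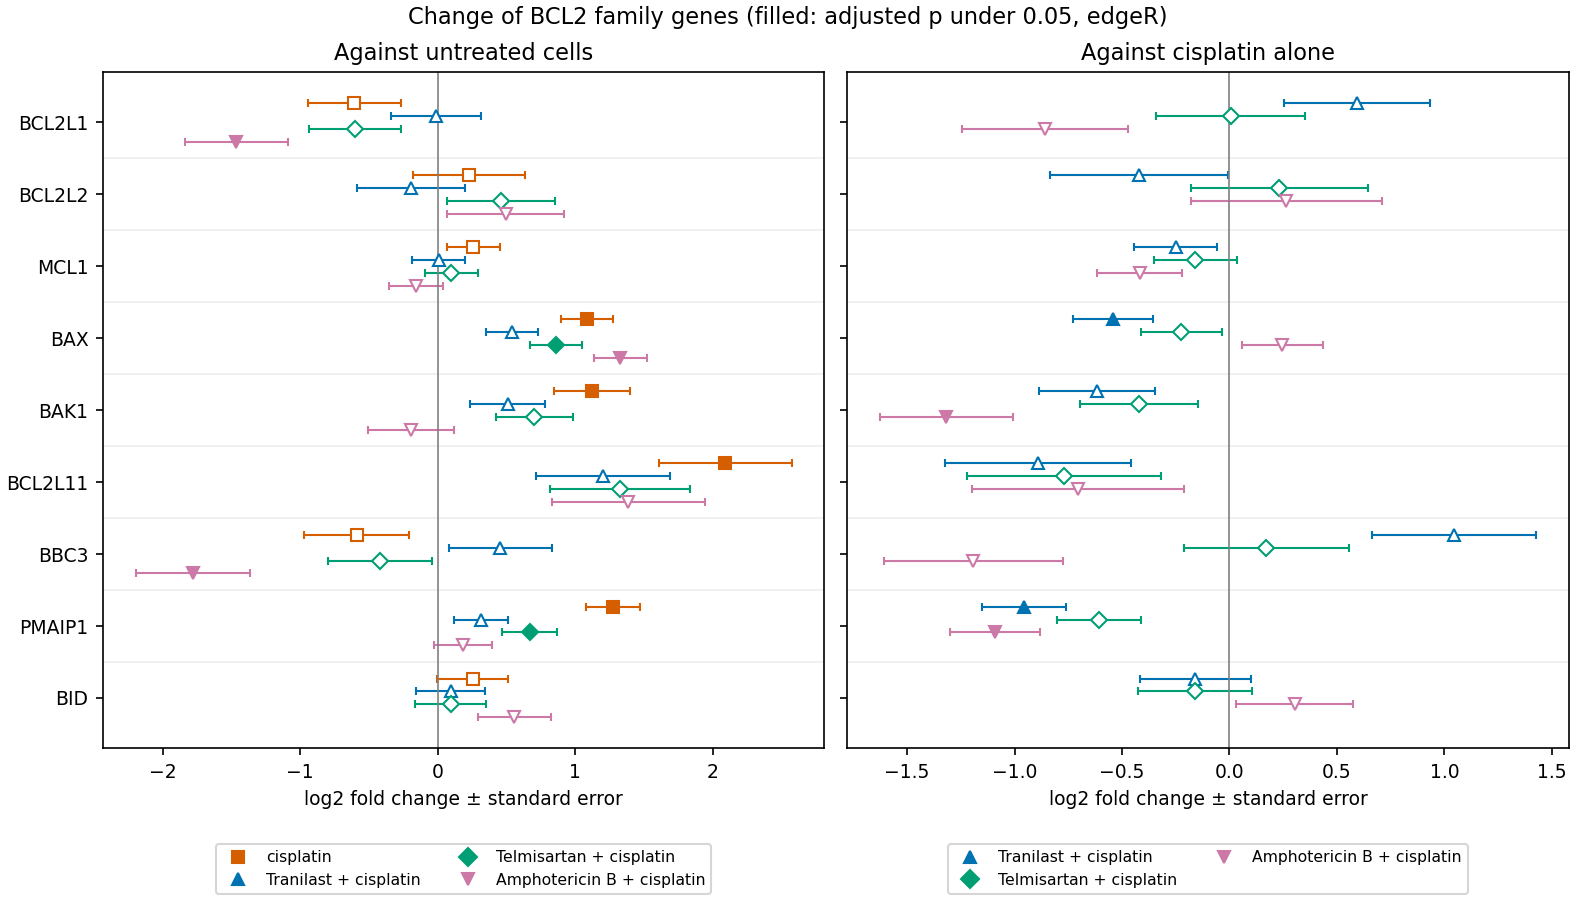
Log2 fold change (x axis, error bars are 1 standard error) of the 9 tested members (y axis) against untreated cells on the left and against cisplatin alone on the right. Filled symbols passed an adjusted p of 0.05: 4 genes for cisplatin against untreated and, against cisplatin alone, PMAIP1 and BAX for Tranilast and PMAIP1 and BAK1 for Amphotericin B.

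With Tranilast before cisplatin, PMAIP1 and BAX were lower than with cisplatin alone. PMAIP1 was 1.94-fold lower, a log2 change of -0.96 (SE 0.19, adjusted p = 0.00371), with no overlap between the 3 and 3 libraries. BAX changed by -0.54 (SE 0.19, adjusted p = 0.0456), near the threshold, and its libraries overlapped between the groups. In all, 2 of 9 members were called, where 22.2% of all tested genes were. BBC3 went the other way, at 2.06-fold and 1.04 (SE 0.38, adjusted p = 0.0566), just short of the threshold although its libraries did not overlap. BCL2L1 changed by 0.59 (SE 0.34, adjusted p = 0.213) and BAK1 by -0.62 (SE 0.27, adjusted p = 0.107). The median change was -0.42 over members and 0.02 over all genes. The BAX call was lost under 14 of 25 alternatives (its value over all 25 was -0.71 to -0.09), among them leaving out cisplatin replicate 1 (log2 change -0.46, adjusted p = 0.0915), cisplatin replicate 3, Amphotericin B replicate 2 or any 1 untreated or Tranilast library. BBC3 passed under 8 alternatives (1.04 to 1.51) but not with the mitochondrial ribosomal RNA share as a covariate, where it gave 0.40 (adjusted p = 0.159). BCL2L1 passed without cisplatin replicate 3 (log2 change 1.08, adjusted p = 0.0312), and BAK1 without cisplatin replicate 1 (log2 change -0.85, adjusted p = 0.0187). PMAIP1 was lost only when library size alone scaled the counts, which shifted the median of all genes to 0.46.

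With Amphotericin B before cisplatin, NOXA and BAK mRNA were lower than with cisplatin alone. PMAIP1 was 2.13-fold lower (log2 change -1.09, SE 0.21, adjusted p = 0.00538) and BAK1 2.49-fold lower (log2 change -1.32, SE 0.31, adjusted p = 0.0126). These 2 of 9 members compare with 13.2% of all genes. BAX was not lower, at 0.25 (SE 0.19, adjusted p = 0.387), while BBC3 (log2 change -1.19, SE 0.42, adjusted p = 0.0621) and BCL2L1 (log2 change -0.86, SE 0.39, adjusted p = 0.136) were lower without passing. The median change was -0.71 over members and -0.03 over all genes. Without cisplatin replicate 1, which stood apart, 5 members were called, all lower: BBC3 then changed by -1.52 (adjusted p = 0.00436), BCL2L1 by -1.15 (adjusted p = 0.0187) and MCL1 by -0.60 (adjusted p = 0.0155). The share of all genes called without that library is not given here, so those 5 members have no background beside them. Fitted on the 6 libraries alone, both calls ended, PMAIP1 at -1.06 (adjusted p = 0.0558) and BAK1 at -1.30 (adjusted p = 0.0828). BAK1 was also lost with the mitochondrial ribosomal RNA share as a covariate (log2 change -0.91, adjusted p = 0.0922), without cisplatin replicate 2 (log2 change -1.02, adjusted p = 0.0894) and without Amphotericin B replicate 3 (log2 change -1.14, adjusted p = 0.0637).

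With Telmisartan before cisplatin, no member was called against cisplatin alone by edgeR, nor by DESeq2 or limma-voom, and the share among all genes was 0.0% (558 higher and 592 lower at an unadjusted p under 0.05, and at the adjusted threshold 13 higher and 42 lower by DESeq2 and none by limma-voom). PMAIP1 was the 1 member with an unadjusted p under 0.05: it changed by -0.61 (SE 0.20, adjusted p = 0.315), and its libraries lay apart. BCL2L11 changed by -0.77 (SE 0.45, adjusted p = 0.582) and BAX by -0.22 (SE 0.19, adjusted p = 0.727). The median change was -0.16 over members and 0.00 over all genes. Cisplatin replicate 1 and Telmisartan replicate 3 both enter this comparison, and without the former PMAIP1 passed, at -0.71 (adjusted p = 0.0429).

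The drug groups were then set against untreated cells, to see how far each member was from its level without cisplatin. With Tranilast, no member was called (8.09% of all genes were): BAX changed by 0.54 (SE 0.19, adjusted p = 0.0863), PMAIP1 by 0.32 (SE 0.20, adjusted p = 0.380) and BBC3 by 0.45 (SE 0.37, adjusted p = 0.532). At an unadjusted p under 0.05 there were 2 members (the share of all genes at that threshold is not given here), DESeq2 called 1, BAX, and limma-voom none. Without cisplatin replicate 1, BAX passed (log2 change 0.54, adjusted p = 0.0454). When only the 6 libraries of these groups were fitted, 4 members passed, all higher: BAX at 0.56 (adjusted p = 0.000244), BAK1 at 0.51 (adjusted p = 0.0157), BCL2L11 at 1.25 (adjusted p = 0.0226) and BBC3 at 0.47 (adjusted p = 0.000179). The lack of calls with Tranilast therefore does not show levels equal to those of untreated cells. The share of all genes called in the fit of the 6 libraries is not given here, so those 4 members have no background beside them.

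With Telmisartan, BAX (log2 change 0.86, SE 0.19, adjusted p = 0.00306) and PMAIP1 (log2 change 0.67, SE 0.20, adjusted p = 0.0177) were higher than in untreated cells, 2 of 9 members, where 28.7% of all genes were called. BAK1 (log2 change 0.70, SE 0.28, adjusted p = 0.0668) and BCL2L11 (log2 change 1.32, SE 0.51, adjusted p = 0.0586) were close to the threshold. Both passed without cisplatin replicate 1, a library that enters here only through the shared estimate of spread, and 4 members were then called. How many of all genes were called without that library is not given here. BCL2L1 was called lower without Telmisartan replicate 3 (log2 change -1.15, adjusted p = 0.0104). Only 1 member, BAX, remained called without untreated replicate 1 or 2, where PMAIP1 gave 0.56 (adjusted p = 0.0860) and 0.61 (adjusted p = 0.0738). BAX itself was lost with library size alone as scaling, 0.61 (adjusted p = 0.0687), where the median of all genes was -0.27.

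With Amphotericin B, BAX was 2.51-fold higher than in untreated cells (log2 change 1.33, SE 0.19, adjusted p = 9.92e-05), while PUMA and BCL-XL mRNA fell. BBC3 was 3.44-fold lower (log2 change -1.78, SE 0.41, adjusted p = 0.00263) and BCL2L1 2.76-fold lower (log2 change -1.46, SE 0.37, adjusted p = 0.00508). With the mitochondrial ribosomal RNA share as a covariate, the BBC3 call was lost at -0.09 (adjusted p = 0.886) and BCL2L1 turned its sign, at 0.13 (adjusted p = 0.858). Without it, 3 of 9 members were called, where 40.9% of all genes were, and BAK1 (log2 change -0.19, SE 0.31, adjusted p = 0.644) and PMAIP1 (log2 change 0.18, SE 0.21, adjusted p = 0.514) were not. The medians were 0.32, 0.46 and 0.18 over the members with Tranilast, Telmisartan and Amphotericin B, and -0.01, -0.03 and -0.19 over all genes. BAX was called with Amphotericin B under all 25 alternatives (0.76 to 1.48), also with library size alone, which shifted the median of all genes to -0.75. BCL2L11 (log2 change 1.38, SE 0.56, adjusted p = 0.0547) passed under 9 of them, and BID (log2 change 0.56, SE 0.27, adjusted p = 0.101) passed without Amphotericin B replicate 2 (log2 change 0.80, adjusted p = 0.0235).

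Compared directly, Tranilast and Amphotericin B groups differed in 3 of 9 members, where 36.0% of all genes differed. With Tranilast, BBC3 was 4.71-fold higher (log2 change 2.24, SE 0.42, adjusted p = 0.00123), BCL2L1 was 2.73-fold higher (log2 change 1.45, SE 0.37, adjusted p = 0.00715) and BAX was 1.72-fold lower (log2 change -0.79, SE 0.19, adjusted p = 0.00495). All 3 calls were lost with the mitochondrial ribosomal RNA share as a covariate, where BBC3 gave 0.58 (adjusted p = 0.458), BCL2L1 -0.12 (adjusted p = 0.925) with its sign turned and BAX -0.75 (adjusted p = 0.194). BAX was also lost with library size alone as scaling, at -0.12 (adjusted p = 0.668). Tranilast against Telmisartan gave no called member by edgeR, DESeq2 or limma-voom, where 2.34% of all genes were called at the adjusted threshold by edgeR. At an unadjusted p under 0.05 there was 1 member, and the share of all genes at that threshold is not given here. Without Telmisartan replicate 3, 2 members were called in this comparison, and the share of all genes called without that library is not given here. Telmisartan against Amphotericin B gave none either by edgeR's quasi-likelihood test, with 5 at an unadjusted p under 0.05, where 0.0% of all genes were called (1449 higher and 834 lower at an unadjusted p under 0.05, and at the adjusted threshold 120 higher and 64 lower by DESeq2 and 0 higher and 2 lower by limma-voom), none by DESeq2 or limma-voom and 1 by edgeR's likelihood ratio test.

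BBC3 and BCL2L1 varied within groups, and their levels moved with the share of counts from mitochondrial ribosomal RNA. In the 6 libraries where that share was above 10% (cisplatin replicate 1, Telmisartan replicates 1 and 2 and all 3 Amphotericin B libraries), BBC3 measured 20.8 to 78.6 CPM and BCL2L1 15.9 to 27.9 CPM. In the other 9 libraries, where the share was at most 5.61%, BBC3 measured 88.3 to 196 CPM and BCL2L1 32.2 to 70.1 CPM, with no overlap for either gene. The ranges of the other 7 tested members overlapped between these sets, PMAIP1 among them with 28.3 to 53.5 CPM above and 22.2 to 69.7 CPM below the limit. The limit of 10% was set after the values were seen, and the sets are a description, not groups of the study. The share of all tested genes whose ranges lay apart between these sets was not determined. The split is therefore not shown to be particular to BBC3 and BCL2L1. With the share as a covariate, BBC3 and BCL2L1 were no longer called for Amphotericin B against untreated, and BAX stayed called at 1.29 (adjusted p = 0.000849). All Amphotericin B libraries have a high share, so the drug and the share cannot be told apart there.

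**Figure D3:**
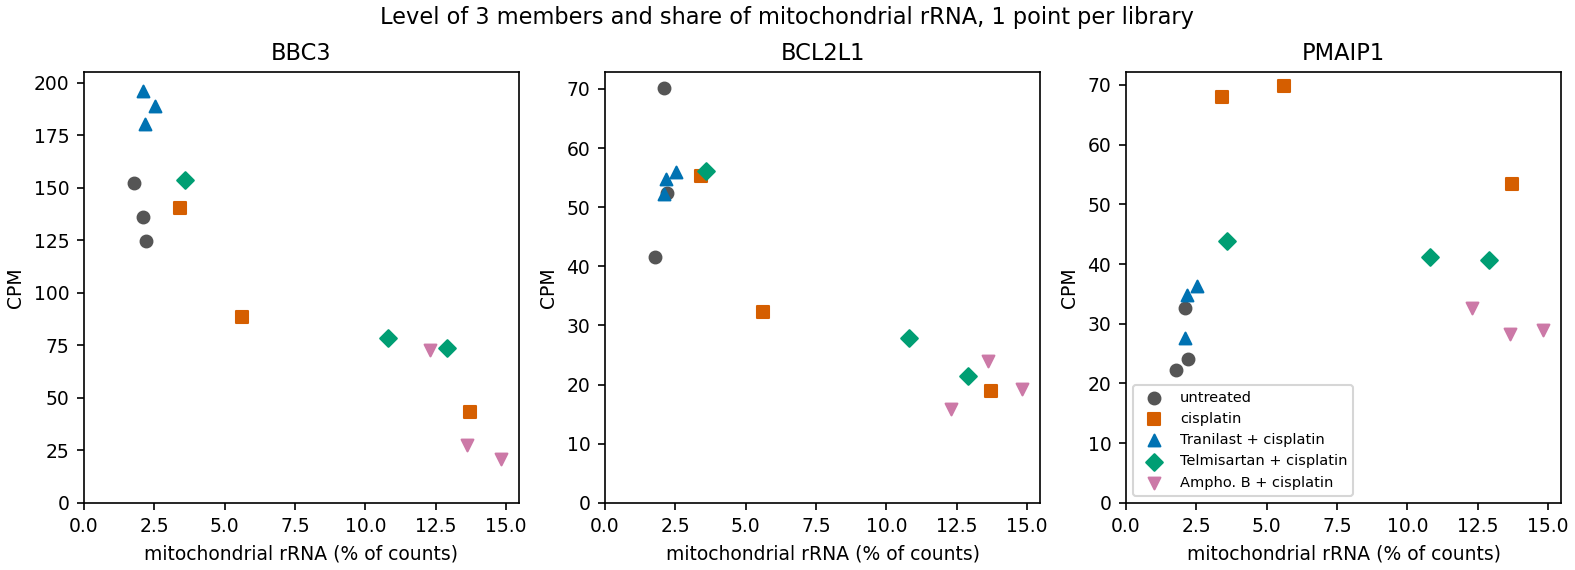
Level of BBC3, BCL2L1 and PMAIP1 in CPM (y axis) against the percentage of counts from mitochondrial ribosomal RNA (x axis), 1 point per library, symbols by condition. BBC3 and BCL2L1 are lower in all 6 libraries above 10% than in the other 9, whereas PMAIP1 is highest with cisplatin alone at low and high shares.

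Ratios of counts within a library need no scaling between libraries. The log2 ratio of BAX to BCL2L1, an effector over its inhibitor, was 0.18, -0.16 and -0.39 in untreated libraries and 2.62, 1.28 and 1.09 with cisplatin. Tranilast libraries had 0.25, 0.59 and 0.35, Telmisartan libraries 1.81, 1.89 and 0.68 and Amphotericin B libraries 2.59, 2.87 and 2.50. Every treated library lay above every untreated one, Tranilast lay nearest to untreated, and the cisplatin and Telmisartan libraries were spread over more than 1 log2 unit. The ratio also moved with the mitochondrial ribosomal RNA share: it was 1.81 to 2.87 in the 6 libraries above 10% and at most 1.28 in the other 9. The log2 ratio of PMAIP1 to MCL1, a BH3-only gene over its main partner, was -3.08, -3.07 and -2.52 untreated and -1.64, -1.96 and -1.88 with cisplatin. It was -2.41, -2.64 and -2.62 in the Tranilast libraries, -2.37, -2.20 and -2.31 in the Telmisartan libraries and -2.54, -2.11 and -2.86 in the Amphotericin B libraries. The 3 cisplatin-alone libraries were above all the others, and within them cisplatin replicate 1 was the highest for both ratios. The ratios are given as a description, with no test.

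**Figure D4:**
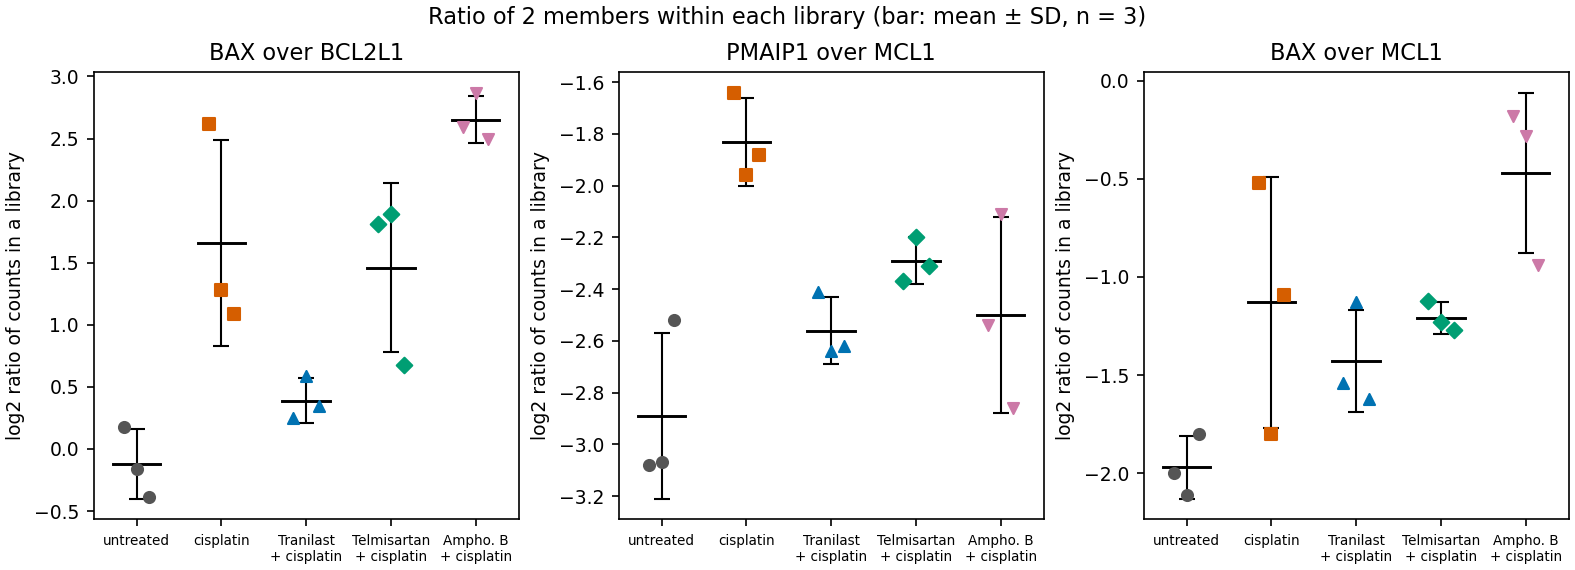
Log2 ratio of the counts of 2 members within each library (y axis) for BAX over BCL2L1, PMAIP1 over MCL1 and BAX over MCL1, 1 point per library by condition (x axis), with bars for the mean ± SD (n = 3). BAX over BCL2L1 is highest with Amphotericin B, and PMAIP1 over MCL1 is highest with cisplatin alone.

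The rest of the pathway was read from 54 listed genes, of which 47 were tested. Calls of these genes are those of the main fit, and how they fared under the alternatives is not given here. With cisplatin against untreated, 12 were higher and 16 lower, 59.6% against the 44.7% of all genes, with a median log2 change of -0.13. Among 7 tested genes of the wider BCL2 family, 2 were higher and 3 lower, led by BCL2L12 (log2 change 1.06, SE 0.18, adjusted p = 0.000186), an atypical member, and the mitochondrial BCL2L13 (log2 change -1.01, SE 0.22, adjusted p = 0.00134). Among 14 genes of the apoptosome and the caspases, 5 were higher and 2 lower, led by CASP2, a caspase linked to DNA damage (log2 change 1.63, SE 0.20, adjusted p = 1.43e-05), and CYCS, the cytochrome c released through the pores (log2 change 0.92, SE 0.25, adjusted p = 0.00711). Of 6 caspase inhibitors, 1 was higher and 3 lower, with BIRC5 (survivin) at 0.80 (SE 0.21, adjusted p = 0.00491) and XIAP, which blocks caspases directly, at -1.04 (SE 0.32, adjusted p = 0.0140). XIAP was widely spread with cisplatin, at 56.7 ± 24.4 CPM against 118 ± 4.1 CPM untreated. Of 6 death receptors and adaptors, FAS (log2 change -2.06, SE 0.63, adjusted p = 0.0134) and TNFRSF1A (log2 change -0.96, SE 0.35, adjusted p = 0.0329) were lower and none higher. FAS was low, at 5.89 ± 0.989 CPM untreated, and near the detection floor with cisplatin, at 1.27 ± 1.3 CPM. TNFRSF1A was widely spread with cisplatin, at 62.8 ± 34.4 CPM against 123 ± 6.59 CPM untreated. All 3 voltage-dependent anion channels, outer membrane partners of BAX and BAK1, were higher, VDAC3 by 0.63 (SE 0.18, adjusted p = 0.00794) and VDAC2 by 0.47 (SE 0.17, adjusted p = 0.0345).

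Among 11 listed regulators of the members, 1 was higher and 6 were lower with cisplatin, where 44.7% of all genes were called. E2F1, a cell cycle factor that can activate BH3-only genes, rose from 19.7 ± 2.24 CPM to 99.2 ± 34.4 CPM, a log2 change of 2.33 (SE 0.27, adjusted p = 8.03e-06). USP9X, which removes ubiquitin from MCL1, fell from 172 ± 12.4 CPM to 64.8 ± 7.73 CPM, a log2 change of -1.41 (SE 0.18, adjusted p = 1.89e-05). With Tranilast against cisplatin alone, 9 of the 47 tested pathway genes were higher and 4 lower (27.7%, against 22.2% of all genes), and USP9X was among the higher ones at 0.96 (SE 0.18, adjusted p = 0.00266), while E2F1 gave -0.44 (SE 0.25, adjusted p = 0.203). With Amphotericin B against cisplatin alone, 1 was higher and 4 lower (10.6%, against 13.2%), CASP2 among the latter at -1.20 (SE 0.21, adjusted p = 0.00404). With Telmisartan against cisplatin alone, no gene of the list was called (0.0% of all genes). Against untreated cells, Tranilast had 2 higher and 1 lower genes (6.38%, against 8.09% of all genes). Telmisartan had 9 higher and 6 lower (31.9%, against 28.7%), and Amphotericin B 10 higher and 19 lower (61.7%, against 40.9%). E2F1 was called higher than untreated in each drug group.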

How the data were processed

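IGROV-CP20 cells were profiled by QuantSeq 3′ mRNA sequencing (single-end reads of 75 bases) in 15 libraries. The authors deposited whole-number read counts per gene and library, with no normalization. The submitters' processing notes name STAR 2.3.0, HTSeq and hg19. The gene annotation and the strand setting are not given in the sources used here. Symbols and GRCh38 positions were read from GENCODE 29 by Ensembl identifier (45776 of 47634 matched), so printed positions are not those of hg19.

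Groups were taken from the sample titles. Genes were filtered with edgeR's filterByExpr, leaving 11113, and 1 model with 5 group means was fitted over all 15 libraries with the quasi-likelihood test (edgeR 4.0.16, R 4.3.3), TMM factors (0.722 to 1.27) and Benjamini-Hochberg adjustment over all tested genes at 0.05, for 10 comparisons. CPM values used TMM-scaled library sizes. On simulated data (10738 genes tested), 200 genes were changed in the Tranilast libraries only. For Tranilast against cisplatin, 45 of 100 genes changed 2-fold and 89 of 100 changed 4-fold were found, with 6 false calls. For cisplatin against untreated, where nothing was changed, there were no false calls. Apart from the changed genes, all groups were drawn from the same mean per gene, so libraries that stood apart were not simulated. Precision for low genes is limited by 1510620 to 3517041 counts per library, and intervals of counting cover no biological spread. The titles call the replicates biological but do not say how they were separated, so the p-values measure the spread between these libraries.

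Alternatives were 10 other settings (other tests and tools, scaling, filters, the 6 libraries alone, the replicate number as a block, the mitochondrial ribosomal RNA share as a covariate) and leaving out each library (15). The members and the gene lists were chosen with earlier results of these data known. Members were named in full, and from every other list those 2 genes called for cisplatin against untreated whose adjusted p was lowest.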

Additional observations from a re-analysis of the deposited data

Results flagged for a closer look

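Tranilast and Amphotericin B, both measured against the same cisplatin libraries, differed in effect for 3 of 9 tested members when compared directly. This is why the 3 are listed here. Of all genes, 36.0% differed in that comparison, so the share of members is near the background. BBC3 was higher with Tranilast by 2.24 on the log2 scale (called under 24 of 25 alternatives), BCL2L1 was higher by 1.45 (24 of 25), and BAX differed by -0.79 (23 of 25), by edgeR with p-values adjusted over all tested genes. With library size alone as scaling, BAX gave -0.12 (adjusted p = 0.668). With the mitochondrial ribosomal RNA share as a covariate, none of the 3 passed: BBC3 gave 0.58 (adjusted p = 0.458), BCL2L1 -0.12 (adjusted p = 0.925) and BAX -0.75 (adjusted p = 0.194). The share was at most 2.53% with Tranilast and at least 12.3% with Amphotericin B, so drug and share cannot be told apart.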

How the results depend on the processing

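BCL2, with 0 to 3 counts, was too low to test at this depth. Over 25 alternatives, the number of called members for cisplatin against untreated stayed within 1.5 times 4 (4 to 6 when 1 library was left out). For Tranilast against cisplatin (2 members) it was 1 with library size alone, 1 with a filter at CPM above 1 and 1 with the 6 libraries alone, and 1 to 3 without 1 library. For Telmisartan against cisplatin (0) it was 0 to 1 without 1 library. For Amphotericin B against cisplatin (2) it was 4 with no filter, 0 with the 6 libraries alone, 1 with the mitochondrial covariate and 1 to 5 without 1 library. Against untreated cells, Tranilast (0) gave 1 by DESeq2, 4 with the 6 libraries alone, 2 with the covariate and 0 to 1 without 1 library. Telmisartan (2) gave 4 by the likelihood ratio test, 4 by DESeq2, 4 with RLE factors, 0 with library size alone, 1 with no filter and 1 to 4 without 1 library. Amphotericin B (3) gave 5 by DESeq2, 5 with the 6 libraries alone, 1 with the covariate and 3 to 4 without 1 library. Tranilast against Amphotericin B (3) gave 5 with library size alone, 0 with the covariate and 3 to 4 without 1 library. Tranilast against Telmisartan (0) gave 1 with no filter and 0 to 2 without 1 library, and Telmisartan against Amphotericin B (0) gave 1 by the likelihood ratio test, 3 with no filter and 0 to 1 without 1 library. Except where fewer libraries or genes entered, the cause was not tested. The shares of all genes called under the same settings are not set beside these counts.

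The covariate turned the sign of BCL2L1 where it was called, to 0.13 for Amphotericin B against untreated and -0.12 for Tranilast against Amphotericin B. It also turned it where BCL2L1 was not called, against untreated cells to 0.01 for cisplatin, 0.22 for Telmisartan and 0.01 for Tranilast, and against cisplatin alone to -0.00337 for Tranilast and 0.11 for Amphotericin B. BCL2L1 was not the only member to turn. For cisplatin against untreated, uncalled BBC3, BCL2L2 and BID turned as well, to 0.09, -0.09 and -0.02. Deviations of same-numbered libraries from their group means had a mean r of 0.02 over 30 pairs (-0.235 to 0.631). For libraries with different numbers the mean r was -0.0115 over 60 pairs (-0.585 to 0.481). Whether equal numbers mark libraries handled together cannot be told from these values. With the replicate number as a block, 4, 2, 0 and 2 members were called for cisplatin against untreated and for Tranilast, Telmisartan and Amphotericin B against cisplatin, the same numbers as without it, although BAX with Tranilast gave -0.52 (adjusted p = 0.0543) and BBC3 1.12 (adjusted p = 0.0410).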

Other observations

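The genes named in this paragraph were chosen after their values were seen. HRK, another BH3-only gene, fell with cisplatin from 7.90 ± 1.13 CPM to 2.64 ± 0.366 CPM, a log2 change of -1.55 (SE 0.39, adjusted p = 0.00437), and was higher with Tranilast than with cisplatin alone, at 1.86 (SE 0.39, adjusted p = 0.00416). These are low levels, and HRK lay near the detection floor with Amphotericin B, at 1.55 ± 1.42 CPM. DDIT3, a stress factor known to act on BH3-only genes, fell from 176 ± 8.49 CPM to 51.2 ± 22.9 CPM (log2 change -1.78, SE 0.27, adjusted p = 8.02e-05), and TRIB3, its target, fell from 103 ± 13.7 CPM to 32.7 ± 16.1 CPM (log2 change -1.63, SE 0.35, adjusted p = 0.00126). Both were higher with Tranilast than with cisplatin alone, DDIT3 by 1.54 (SE 0.27, adjusted p = 0.00198) and TRIB3 by 1.63 (SE 0.35, adjusted p = 0.00496). With Amphotericin B, DDIT3 was again higher than with cisplatin alone, by 0.96 (SE 0.28, adjusted p = 0.0315). TRIB3 gave -0.19 (SE 0.38, adjusted p = 0.764), HRK -0.81 (SE 0.60, adjusted p = 0.378) and BBC3 -1.19 (SE 0.42, adjusted p = 0.0621), none of them called. All values in this paragraph come from edgeR tests of the same libraries that gave the values of BBC3, with Benjamini-Hochberg adjustment. A link between these genes and BBC3 was not tested.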
